A study of Bos taurus with 6 samples.

Results

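The miR-200 family comprises bta-miR-200a, bta-miR-200b, bta-miR-200c, bta-miR-141 and bta-miR-429, and its members were taken by name from the deposited count table of serum extracellular vesicles (EVs). All 5 were present among the 706 miRNAs of the table, 359 of which carry names of known Bos taurus miRNAs. EVs are membrane-bound particles that cells release into body fluids, and here they were purified from serum by binding to a membrane column. Serum came from 6 female Holstein cows in mid lactation, with 1 small RNA library per cow. The 3 control cows received a total mixed ration, and the 3 tested cows received a ration in which whole cotton seed and soybean hull took the place of part of the alfalfa hay. Blood was drawn on day 30, and both groups were housed in the same kind of climate chamber. The question was whether the amounts of the family members, of their genomic clusters and of their seed groups differed between the diets.

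The miR-200 family is a classic marker of epithelial cells, which line the gut, the airways, the kidney tubules and the milk-producing alveoli of the mammary gland. Its members repress ZEB1 and ZEB2, transcription factors that silence E-cadherin, and they thereby help to keep cells in the epithelial state. A miRNA recognizes its target mRNAs mainly through its seed, bases 2 to 8 from the 5′ end, so miRNAs that share a seed share many targets. The family has a pair of seeds and is made from a pair of primary transcripts, and the seed groups cut across the transcripts.

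The sequences are shown because the seed groups and the chance of mistaking neighbouring members for each other both rest on them. They are the DNA letters of the deposited table, 5′ to 3′, with the seed in capitals. The first 3 lines form the seed group of bta-miR-200b, bta-miR-200c and bta-miR-429, and the last 2 lines form that of bta-miR-200a and bta-miR-141.
bta-miR-200b: tAATACTGcctggtaatgatg
bta-miR-200c: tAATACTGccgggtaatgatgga
bta-miR-429: tAATACTGtctggtaatgccgt
bta-miR-200a: tAACACTGtctggtaacgatgtt
bta-miR-141: tAACACTGtctggtaaagatgg

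The seeds of the groups differ by a single base, T4C from bta-miR-200b to bta-miR-200a, with positions counted from 1 at the 5′ end. Over the 21 bases that they share, bta-miR-200b and bta-miR-200c differ only by T11G, although they come from different transcripts. Over their 22 shared bases, bta-miR-200a and bta-miR-141 differ by C17A and T22G. The submitters' notes name Bowtie without its role, and the mismatches allowed when reads were assigned are not given in the sources used here, so reads may have been divided imperfectly within each of these close pairs. Outside the family, no listed sequence lay within 3 differences of a member or was nested with it. The first seed stood at bases 2 to 8 of 3 of the 706 listed sequences (0.425%), all of them members. The second stood there in 3 as well, the remaining holder being novel40_mature, an 18-nt predicted miRNA with counts of 0, 1 and 1 under the control diet and of 3, 4 and 20 under the tested diet. It was rare beside its seed mates, which had at least 18326 counts in each cow.

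In the RefSeq gene order of assembly ARS-UCD2.0, MIR429, MIR200A and MIR200B followed each other with no other annotated gene between them, flanked by TTLL10 and C16H1orf159. MIR141 and MIR200C were likewise direct neighbours, with PTPN6 on the far side of MIR200C. Each of the 5 gene symbols matched a single entry. The authors matched reads to an earlier assembly, so coordinates are not given here.

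The libraries held between 1277693 and 2176002 miRNA counts, and between 1226928 and 2088249 of these lay on known miRNAs. Red blood cell miRNAs (bta-miR-451, bta-miR-144 and bta-miR-486) set tested cow 1 apart, with 5.96% of known counts against 0.862% to 2.84% in the other cows. White blood cell miRNAs held at most 0.0439% of known counts in any cow, liver miRNAs 0.107% to 0.202%, and vessel and platelet miRNAs at most 0.0324%. Muscle miRNAs held at most 0.00481%, with bta-miR-133a at 1 count in all. The miRNAs listed for mammary gland and milk held 8.67% to 11.9% of known counts, nearly all of it bta-miR-148a, which many tissues express. In the edgeR fit of tested over control, all 4 vessel and platelet miRNAs had log2 fold changes above 0, with a median of 1.63. Of the 312 known miRNAs tested, 154 were above 0, with a median of -0.01. Of the vessel and platelet list, bta-miR-199a-3p was called (unadjusted p below 0.05 and a log2 fold change beyond 1 in size), as were 3.21% of all 623 miRNAs tested. Its log2 fold change was 2.66, with an adjusted p of 0.448 by edgeR. Without tested cow 1 the vessel and platelet median was 0.91, with 3 of 4 above 0 and none called. Of this list none was called either by limma, with the replicate number as a block, or without control cow 1 or control cow 3. By contrast, 2 were called by DESeq2, with known miRNAs only and without tested cow 2. The 3 red blood cell miRNAs were all above 0, with a median of 0.58, but without tested cow 1 all 3 were below 0, with a median of -1.08 and 2 called, and by limma and with the replicate number as a block the medians were -0.13 and -0.14. The 2 muscle miRNAs tested were above 0, at counts of at most 58 per cow, with a median of 2.05 that was 3.15 without control cow 3, and without tested cow 3 only 1 of them was tested. All 3 mammary and milk miRNAs were below 0 and none was called, with a median of -0.26 that moved to -0.10 when control cow 3 was left out and to -0.41 when control cow 2 was. The white blood cell and liver lists had no steady direction. Of the former 2 of 4 were above 0, with a median of -0.14 that was 0.79 without control cow 1, 0.11 without tested cow 2 and -0.50 without tested cow 1. Of the latter 3 of 3 were above 0, with a median of 0.06, but only 1 of 3 by DESeq2, with its size factors in edgeR, without control cow 3 and without tested cow 1, where the median was -0.17. Without tested cow 2 and tested cow 3 it was 0.27 and 0.42. The part of these sources in the results on the family was not tested. In serum, more vesicles from a cell type and more miRNA per vesicle cannot be told apart.

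The family was abundant in serum EVs. It had 914607 counts in all, 8.52% of the known miRNA counts of the 6 libraries, and between 107981 and 196149 counts per library. Every member had counts in every cow, from 888 for bta-miR-429 in tested cow 1 to 89734 for bta-miR-200c in tested cow 3. Levels are given below as shares of the known miRNA counts of the library, which are not scaled to length since the mature sequences are 21 to 23 nt long. At this depth the Wilson 95% interval of a single share reached at most 0.863% of its value on either side for bta-miR-200c, 3.89% for bta-miR-200b and 6.79% for bta-miR-429. These intervals cover the counting error of a single library only, not the variation between cows. Because PCR copies of a molecule are counted apart, they may be too narrow even for that.

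The leading member was bta-miR-200c, which comes from the cluster of bta-miR-141 but shares its seed with bta-miR-200b and bta-miR-429. It held 3.82%, 4.42% and 4.28% of the known counts in control cows 1, 2 and 3 and 4.07%, 3.90% and 4.30% in tested cows 1, 2 and 3. The groups overlapped fully, and the miRNA stood between rank 6 and rank 8 among known miRNAs in each cow. Its mean was 4.18% ± 0.316 (SD, n = 3) in control cows and 4.09% ± 0.199 (SD, n = 3) in tested cows, which differed by less than the cows of a group did (two-sided exact permutation test, p = 0.8).

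The second member by level, bta-miR-200a, held 2.46%, 2.78% and 1.81% under the control diet and 2.85%, 2.94% and 3.01% under the tested diet. Every tested cow lay above every control cow on this scale, with control cow 3 lowest. In CPM (counts scaled to the library total) after TMM scaling, in which each library gets a factor that ignores extreme miRNAs, the groups overlapped, with control cow 2 at 27036 and tested cow 3 at 26431 (exact permutation test, p = 0.2). The mean was 2.35% ± 0.491 (SD, n = 3) in control cows and 2.94% ± 0.0780 (SD, n = 3) in tested cows, 1.25-fold higher (exact permutation test, p = 0.1). With 3 cows against 3, 0.1 is the smallest p that this test can give. Without control cow 3 the difference was 0.315 percentage points in place of 0.584. Its ranks ran from 10 to 13.

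For bta-miR-141, the partner of bta-miR-200c in the genome and of bta-miR-200a by seed, the shares were 1.19%, 1.43% and 1.14% in control cows and 1.58%, 1.69% and 1.78% in tested cows. These groups did not overlap either, nor did they in TMM-scaled CPM, and the ratio of the means was 1.34. The ranks of single cows were 19, 16 and 17 under the control diet and 16, 13 and 14 under the tested diet.

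Well below these came bta-miR-200b and bta-miR-429, which are made from the same transcript as bta-miR-200a. The share of bta-miR-200b was 0.171%, 0.195% and 0.149% in control cows and 0.227%, 0.194% and 0.198% in tested cows. The highest control cow lay above the lowest tested cow, and the means of 0.172% ± 0.0233 (SD, n = 3) and 0.206% ± 0.0181 (SD, n = 3) differed with p = 0.2 (exact permutation test). For bta-miR-429 the shares were 0.0785%, 0.0581% and 0.050% in control cows and 0.0724%, 0.0585% and 0.104% in tested cows (exact permutation test, p = 0.4). Tested cow 3 was highest for bta-miR-429, followed by control cow 1. The order of the members by level was bta-miR-200c, bta-miR-200a, bta-miR-141, bta-miR-200b and bta-miR-429 in each of the 6 cows, so no pair of neighbours in this order changed places.

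**Figure D1:**
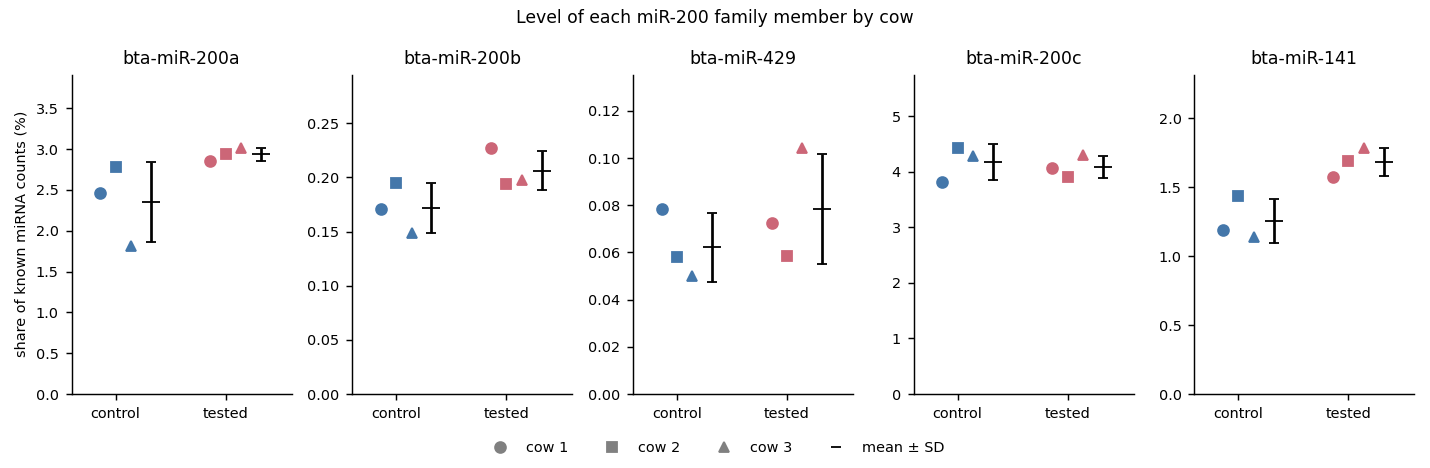
Share of known miRNA counts (%, vertical axes from 0, a separate scale for each miRNA) of the 5 family members in control cows (blue) and tested cows (red), with the mean and SD of 3 cows beside them. All 3 tested cows lie above all 3 control cows for bta-miR-200a and bta-miR-141 on this scale (in TMM-scaled CPM for bta-miR-141 only), while the groups overlap for bta-miR-200b, bta-miR-429 and bta-miR-200c.

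Of the 5 members, 2 had every tested cow above every control cow by share of known counts, as did 5.77% of the 312 known miRNAs tested. In TMM-scaled CPM this held for 1 member, bta-miR-141, and for 4.49% of the known miRNAs. Summed over the family, the share was 7.72%, 8.89% and 7.44% in control cows and 8.80%, 8.79% and 9.39% in tested cows. Control cow 2 lay within the range of the tested cows, and the difference of the means, 8.02% ± 0.770 (SD, n = 3) against 8.99% ± 0.346 (SD, n = 3), was not beyond the spread (exact permutation test, p = 0.3). The direction of these shares depended on the total. Known miRNAs made up 10.8%, 15.7% and 18.0% of the clean reads in control cows and 8.50%, 15.6% and 8.63% in tested cows. In the deposited RPM values, which are scaled to clean reads, the median of 105 known miRNAs with a mean of at least 100 CPM differed by -0.44 on the log2 scale, tested minus control, and the summed family by -0.30. On that scale the log2 differences were -0.13 for bta-miR-200a, -0.20 for bta-miR-200b, -0.15 for bta-miR-429 and -0.04 for bta-miR-141, all above the median, and -0.50 for bta-miR-200c, below it. In RPM the groups overlapped for all 5 members, both clusters and both seed groups.

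The diets were also compared in a fit across all miRNAs, by edgeR's quasi-likelihood test after TMM scaling. It took in 623 miRNAs whose counts summed to at least 10. A miRNA was called where its log2 fold change exceeded 1 in size and its unadjusted p lay below 0.05, the threshold printed on the study's heat map. Adjustment for the 623 tests was by the Benjamini-Hochberg method. None of the 5 members was called, beside 3.21% of all miRNAs tested. An unadjusted p below 0.05 was found for 1 member, bta-miR-141, and for 4.65% of all miRNAs. In DESeq2 and in limma, 0 members were called too, beside 26 and 15 of all 623 miRNAs. The unadjusted p of bta-miR-141 was 0.269 by DESeq2 and 0.0283 by limma.

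The log2 fold change, tested over control, was 0.37 for bta-miR-141 (standard error 0.155, 95% interval 0.03 to 0.70), with an edgeR p of 0.0346 and an adjusted p of 0.448. With each cow left out in turn, its edgeR p ran from 0.0432 to 0.162. For bta-miR-200a it was 0.27 (standard error 0.151, 95% interval -0.06 to 0.60, adjusted p = 0.448 by edgeR), and without control cow 3 it was 0.16. The values of bta-miR-429 and bta-miR-200b were 0.27 and 0.21, with wider intervals of -0.47 to 1.00 and -0.33 to 0.75. That of bta-miR-429 was 0.09 without tested cow 3 and 0.41 without control cow 1, and that of bta-miR-200b was 0.13 without tested cow 1. The only value below 0 was that of bta-miR-200c, -0.10, with an interval of -0.38 to 0.19. It was -0.20 without control cow 1, -0.01 without control cow 3 and -0.06 without tested cow 3. The family's median was 0.27, beside 0.07 over all 623 miRNAs and -0.01 over the known ones. Each interval lay inside the fold change that a call requires, that of bta-miR-429 only just.

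**Figure D2:**
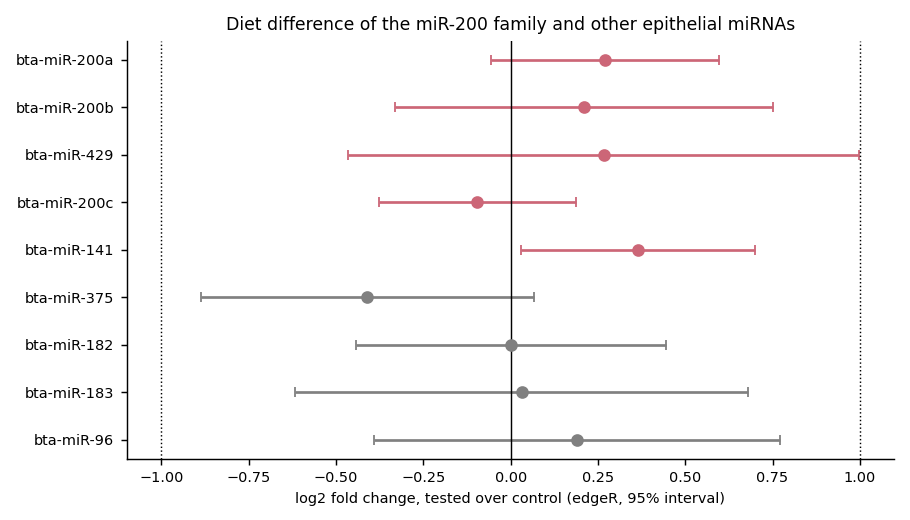
Log2 fold change of tested over control with its 95% interval from edgeR (horizontal axis) for the 5 family members (red) and for the other epithelial miRNAs with a standard error below 1 (grey). Dotted lines mark the fold change that a call requires, and only the interval of bta-miR-141, 0.03 to 0.70, lies wholly to one side of 0.

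By genomic cluster, bta-miR-200a, bta-miR-200b and bta-miR-429 together held 2.71%, 3.03% and 2.01% of known counts in control cows and 3.15%, 3.19% and 3.31% in tested cows, which did not overlap (exact permutation test, p = 0.1). In TMM-scaled CPM they overlapped, with control cow 2 at 29502 and tested cow 3 at 29081 (exact permutation test, p = 0.2). Their difference of 0.634 percentage points of known counts was 0.348 without control cow 3. The cluster of bta-miR-200c and bta-miR-141 held 5.01%, 5.86% and 5.42% in control cows and 5.65%, 5.59% and 6.08% in tested cows, which overlapped (exact permutation test, p = 0.4). Whether the clusters differed in their response was tested on the log2 ratio of the first cluster to the second in each cow, which needs no total. It was -0.89, -0.95 and -1.43 in control cows and -0.84, -0.81 and -0.88 in tested cows. The tested cows were nearly alike and just above control cow 1, and control cow 3 lay far below. The mean difference was 0.25 (exact permutation test, p = 0.1), and without control cow 3 it was 0.08 (exact permutation test, p = 0.2). With the mean of the members' log2 counts, which gives the rarer members equal weight, it was 0.11 (exact permutation test, p = 0.7).

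By seed, bta-miR-200a and bta-miR-141 together held 3.65%, 4.21% and 2.95% of known counts in control cows and 4.43%, 4.63% and 4.79% in tested cows. The groups did not overlap (two-sided exact permutation test, p = 0.1), nor did they in TMM-scaled CPM, and tested cows were higher by a factor of 1.28. The group of bta-miR-200b, bta-miR-200c and bta-miR-429 held 4.07%, 4.68% and 4.48% against 4.37%, 4.15% and 4.60%, with means of 4.41% ± 0.310 (SD, n = 3) and 4.37% ± 0.223 (SD, n = 3) that differed by less than the spread (exact permutation test, p = 0.9). The log2 ratio of the second group to the first, that is of the bta-miR-200b seed to the bta-miR-200a seed, was 0.16, 0.15 and 0.60 in control cows and -0.02, -0.16 and -0.06 in tested cows. Counts of the bta-miR-200b seed thus exceeded those of the bta-miR-200a seed in each control cow and were below them in each tested cow. In each cow most counts of the bta-miR-200b seed were those of bta-miR-200c, so this contrast does not show a shift shared by that seed group. The edgeR log2 fold changes of bta-miR-200b and bta-miR-429 were 0.21 and 0.27, both with 95% intervals that reached both signs. Their direction was that of bta-miR-200a and bta-miR-141, and only bta-miR-200c had the opposite sign. The mean difference of the log2 ratio was -0.38 (exact permutation test, p = 0.1), and it was -0.23 without control cow 3 (exact permutation test, p = 0.1). Without tested cow 2 it was -0.34, and with the mean of the members' log2 counts it was -0.20 (exact permutation tests, p = 0.3 for each).

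Expressed as the make-up of the family, bta-miR-200c supplied 49.5%, 49.8% and 57.6% of the family's counts in control cows and 46.3%, 44.4% and 45.7% in tested cows. The part of bta-miR-141 was 15.4%, 16.1% and 15.3% in control cows and 17.9%, 19.3% and 19.0% in tested cows. That of bta-miR-200a was 31.9%, 31.3% and 24.4% against 32.4%, 33.5% and 32.1%. The parts of a cow sum to 100%, so a lower part of one member raises those of the others, and the members' parts are not separate observations. Control cow 3 lay farthest from the rest for bta-miR-200c and bta-miR-200a. Together bta-miR-200b and bta-miR-429 supplied few of the counts, at most 2.58% and 1.11% in any cow.

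**Figure D3:**
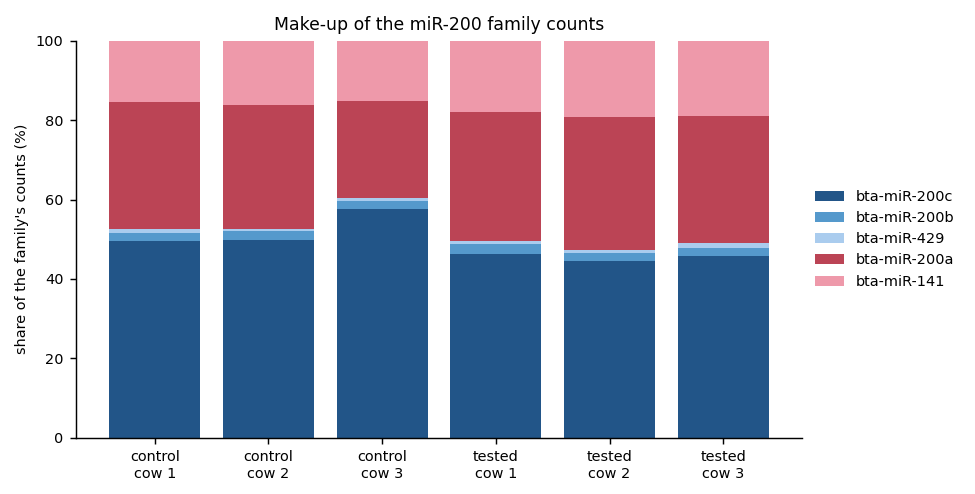
Share of the family's counts (%, stacked to 100) supplied by each member in each of the 6 cows, with the bta-miR-200b seed group in blues and the bta-miR-200a seed group in reds. The blue part ends between 52.6% and 60.3% in control cows and between 47.3% and 49.7% in tested cows.

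Ratios between cluster mates were examined next, because members cut from the same transcript start out in equal numbers. Within the first cluster, counts of bta-miR-200a were 14.4, 14.2 and 12.2 times those of bta-miR-200b in control cows and 12.6, 15.2 and 15.2 times in tested cows. These overlapped, with a mean log2 difference of 0.07 (exact permutation test, p = 0.5, adjusted p = 0.75 over the 3 ratios). Counts of bta-miR-429 were 0.458, 0.298 and 0.337 times those of bta-miR-200b in control cows and 0.319, 0.302 and 0.527 times in tested cows (exact permutation test, p = 0.8, adjusted p = 0.8). In the second cluster, counts of bta-miR-200c were 3.20, 3.08 and 3.76 times those of bta-miR-141 in control cows and 2.58, 2.30 and 2.41 times in tested cows. The groups did not overlap, with a mean log2 difference of -0.46 (exact permutation test, p = 0.1, adjusted p = 0.3). With each cow left out in turn, this difference ran from -0.52 to -0.37. The ratio of bta-miR-200a to its seed mate bta-miR-141, which stem from different clusters, was 2.07, 1.94 and 1.59 in control cows and 1.81, 1.74 and 1.69 in tested cows, which overlapped (exact permutation test, p = 0.5).

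**Figure D4:**
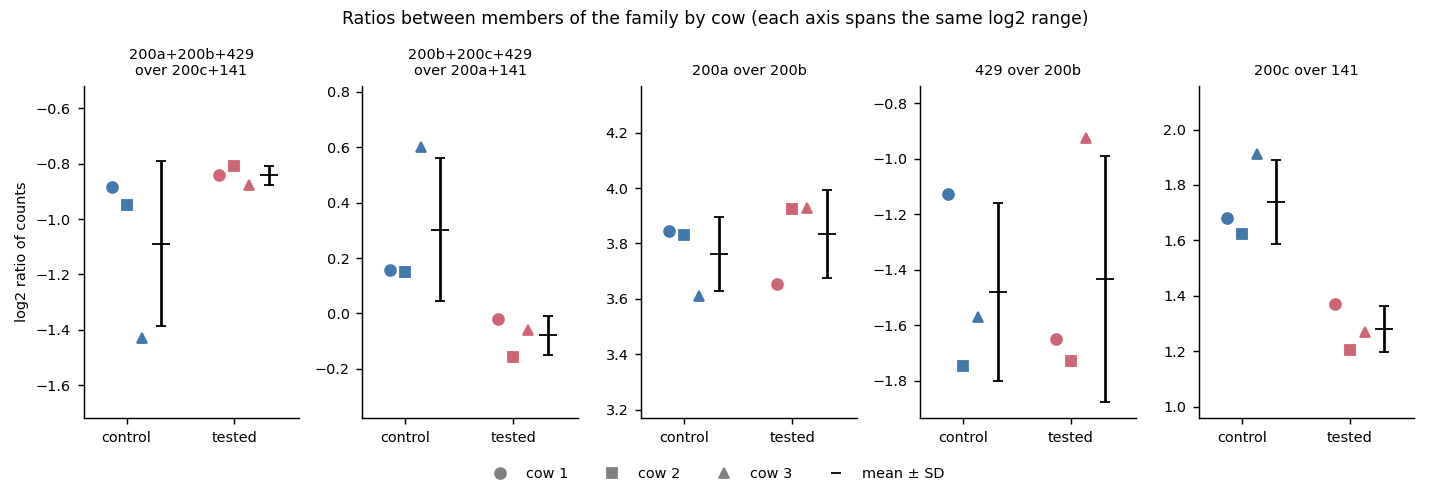
Log2 ratio of counts between clusters, between seed groups and between cluster mates (vertical axes, equal spans) in control cows (blue) and tested cows (red), with the mean and SD of 3 cows. The cow values do not overlap for the cluster ratio, the seed ratio and bta-miR-200c over bta-miR-141, whereas they overlap for the ratios among bta-miR-200a, bta-miR-200b and bta-miR-429.

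Of the 10 pairs that can be formed from the members, 3 had ratios that did not overlap between the diets, and all 3 involve bta-miR-200c, against bta-miR-141, bta-miR-200a and bta-miR-200b. Among the 5460 pairs of the 105 known miRNAs with at least 100 CPM on average, 12.1% had ratios that did not overlap. The 3 pairs share the counts of bta-miR-200c and are not separate observations. In size, a log2 difference as large as that of bta-miR-200c over bta-miR-141 was found for 33.5% of the 5460 pairs, whose median was 0.31. A difference as large as that of bta-miR-200a over bta-miR-141 was found for 84.3% of them, and one as large as that of bta-miR-200a over bta-miR-200b for 86.8%.

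The members also differed in how far they varied between cows. The standard deviation of log2(CPM + 1) over the 6 cows was 0.13 for bta-miR-200c, at rank 6 of the 105 miRNAs from the smallest, 0.18 for bta-miR-200b, 0.23 for bta-miR-200a, 0.24 for bta-miR-141 and 0.29 for bta-miR-429, where the median of the 105 was 0.29. Within groups it was 0.14 for bta-miR-141 and 0.13 for bta-miR-200c, beside a median of 0.27.

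The likeness of profiles was measured as the root mean square distance between log2(CPM + 1) values over the 6 cows, each miRNA centred on its own mean. Seen from bta-miR-141, the nearest of 104 other miRNAs was bta-miR-99a-5p, from outside the family, at 0.11. Next came bta-miR-200a at rank 2, at 0.12, and bta-miR-200b at rank 3, at 0.15. The cluster mate of bta-miR-141, bta-miR-200c, stood at rank 22, at 0.25. Seen from bta-miR-200a, bta-miR-141 and bta-miR-200b stood at ranks 3 and 4, both at 0.12, and bta-miR-99a-5p was nearest, at 0.06. For bta-miR-200b the nearest was bta-miR-30b-5p, also outside the family, at 0.10. The nearest to bta-miR-200c was bta-miR-98, at 0.07, and none of its family came closer than rank 31. For bta-miR-429, no member came closer than rank 15. These ranks are a description over 6 cows that share the same TMM factors.

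The 5 known miRNAs outside the family whose profiles were most like that of the summed family were bta-miR-30d, bta-miR-30b-5p, bta-miR-25, bta-miR-30a-5p and bta-miR-30c. Their distances were 0.07, 0.12, 0.12, 0.13 and 0.13, beside a median of 0.30 over 100 miRNAs. Their centred values lay between -0.14 and 0.31 in all cows. The first of them, bta-miR-30d, held 3.82% of known counts in control cows and 3.90% in tested cows on average, close to the level of bta-miR-200c.

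**Figure D5:**
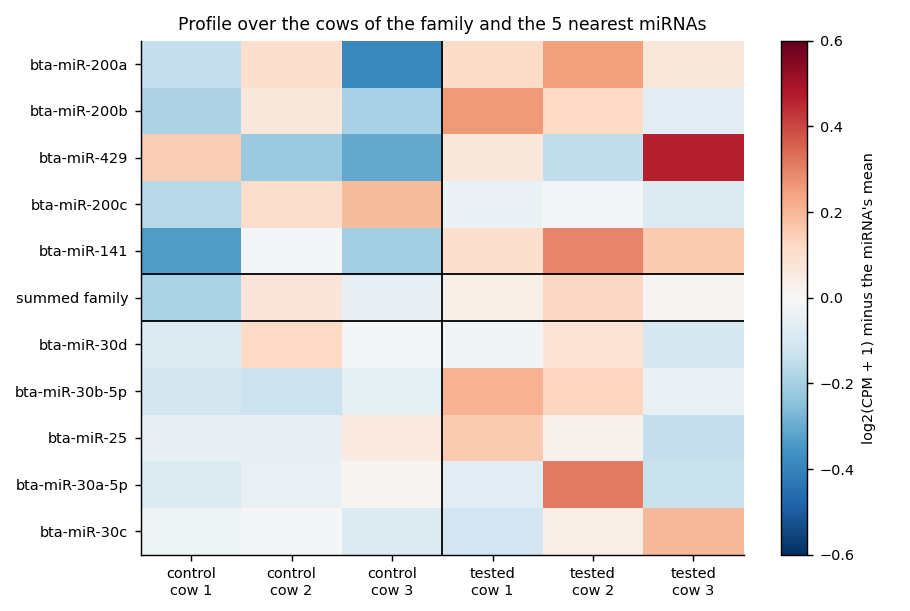
Log2(CPM + 1) of each miRNA minus its own mean (colour) in the 6 cows (columns) for the 5 members, the summed family and the 5 nearest other miRNAs (rows). Values of bta-miR-141 run from -0.34 to 0.30 and those of bta-miR-200c from -0.17 to 0.19, while control cow 3 is low for bta-miR-200a (-0.38) and high for bta-miR-200c (0.19).

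Other miRNAs known from epithelia were set beside the family. Of 7 listed, 6 were in the table, and together they held 0.880% to 1.201% of known counts in control cows and 0.897% to 1.10% in tested cows, which overlapped. None of the 6 was called by edgeR, and their log2 fold changes ran from -0.55 to 0.19 with a median of -0.11. This median had no steady direction, at 0.00 without tested cow 1 or tested cow 3, 0.02 by limma, with filterByExpr and with the replicate number as a block, and -0.17 by DESeq2. The most abundant were bta-miR-182 and bta-miR-375, the latter a miRNA of endocrine and secretory epithelium, followed by bta-miR-96, which is made with bta-miR-182 and bta-miR-183 from a shared transcript. The log2 fold changes were 0.00 for bta-miR-182, -0.41 for bta-miR-375 and 0.19 for bta-miR-96, with adjusted p-values of 0.999, 0.448 and 0.881 by edgeR. The skin and squamous marker bta-miR-205 had only 3 to 73 counts per cow, far fewer than any member of the miR-200 family.

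Ratios of the family to single epithelial miRNAs were chosen after their values were seen. The log2 ratio of the family's counts to those of bta-miR-375 was 4.05, 4.33 and 4.40 in control cows and 4.52, 5.13 and 4.73 in tested cows. These did not overlap (exact permutation test, p = 0.1, the smallest p that it can give), as was the case for 12.1% of the pairs of single known miRNAs above. Against bta-miR-182 the ratio was 4.10, 4.64 and 4.44 in control cows and 4.59, 4.56 and 4.36 in tested cows, with means of 4.39 ± 0.273 (SD, n = 3) and 4.50 ± 0.125 (SD, n = 3) that overlapped (exact permutation test, p = 0.7). Against bta-miR-96 and bta-miR-183 the mean differences were -0.08 and 0.07 (exact permutation tests, p = 0.8 and p = 0.9).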

How the data were processed

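Small RNAs of serum EVs were sequenced by the authors as 1 library per cow, 3 cows per diet. The authors filtered reads, matched them to the bovine genome (ARS-UCD1.2 per the labels), removed other RNA classes and assigned known miRNAs from miRBase and predicted ones from miRDeep2. The submitters' processing notes name cutadapt 1.14 and Bowtie without their roles. The deposited counts are whole numbers without normalization. The values deposited as TPM are RPM, the count divided by the clean reads of the library. The authors' fold changes and p-values, also deposited, were not used. Here, counts were tested with edgeR 4.0.16 in R 4.3.3 (TMM, estimateDisp, glmQLFit, glmQLFTest) over 623 miRNAs with a count sum of at least 10. Shares and ratios were computed in Python 3.11.15 with NumPy 2.4.6 and pandas 2.3.3 and tested by exact permutation (two-sided), and SciPy 1.17.1 gave the Wilson intervals. Scripts were tested on simulated data. Alternatives were DESeq2 1.42.0, limma 3.58.1 on log2(CPM + 1), other factors, filters and totals, robust estimation, the replicate number as a block and each cow left out. A total without red blood cell miRNAs was added after the data were seen. The members, marker lists and tests were chosen with earlier results of these data known. Named were the members, the 3 most abundant miRNAs of the epithelial list, the 5 nearest profiles, the nearest to single members and holders of the seeds. The other marker miRNAs, bta-miR-205, bta-miR-183 and the ratios to 4 epithelial miRNAs were chosen after their values were seen. The labels number the cows 1 to 3 in each group without saying that numbers pair them. Gene neighbours are from RefSeq ARS-UCD2.0.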

Additional observations from a re-analysis of the deposited data

How the results depend on the processing

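Of 219 values of 20 results under alternatives, 203 kept the direction and 16 did not. Blocked shares and ratios, which have the same mean difference by construction, are left out of these counts. No member was called under any alternative fit, where the miRNAs called in all ranged from 6 (known miRNAs only) to 26 (DESeq2). In RPM of clean reads the differences turned negative, to -2129 for the family, -263 and -1866 for the clusters of bta-miR-200a and bta-miR-200c, -247 for the bta-miR-200a seed group, and -224, -31.0, -7.77 and -23.0 for bta-miR-200a, bta-miR-200b, bta-miR-429 and bta-miR-141, with exact permutation p from 0.2 to 1. The cause was not tested. In TMM-scaled CPM the groups of bta-miR-200a and of its cluster overlapped, with differences of 4769 and 5158 CPM. With each cow left out in turn, the difference in percent of known counts ran from -0.265 to 0.0369 for bta-miR-200c and from -0.206 to 0.0972 for the bta-miR-200b seed group. The log2 ratio of bta-miR-200a to bta-miR-200b ran from -0.0031 to 0.16 and that of bta-miR-429 to bta-miR-200b from -0.21 to 0.23. By edgeR the log2 fold change of bta-miR-141 stayed between 0.29 and 0.46 when cows were left out, and its unadjusted edgeR p ran from 0.0123 with known miRNAs only to 0.162 without control cow 1, with 0.269 by DESeq2. Across miRNAs, same-numbered cows had correlations of -0.06, -0.05 and -0.02, within the range of the other pairs of cows (-0.06 to 0.11). With most miRNAs at low counts, these values cannot settle whether the numbers pair the cows. With that number as a block, edgeR called 12 miRNAs in place of 20, 0 of them members, and gave bta-miR-141 a log2 fold change of 0.37. With the red blood cell miRNAs out of the total, the family's difference was 1.06 percentage points against 0.976, and without tested cow 1 it was 1.07. At 3 cows a group, no exact test could pass 0.05, and depth limits bta-miR-429 most.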
